A study of Mus musculus with 12 samples.

Results

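Expression of 10 genes of the piRNA pathway and of the germ cell Tudor family was examined in the E15.5 mouse ovary: Piwil2, Mael, Mov10l1, Tdrd1, Tdrd5, Tdrd6, Tdrd7, Tdrd9, Tdrd12 and Rnf17. The genes were taken by symbol from a table of 54532 gene rows, of which 36214 held at least 1 count, and all 10 symbols were found once. Bulk RNA-seq was performed on 12 libraries in 4 groups of 3 replicates: germ cells and somatic cells, each after saline or after dexamethasone (dex, a glucocorticoid receptor agonist). Dams were dosed intraperitoneally with dex at 10 µg per g, or with an equal volume of saline, once a day with the first dose at E12.5 and the last at E15.5, and female embryos were collected at E15.5. Every group carried the Pou5f1-ΔPE-eGFP transgene (OCT4-GFP), in which Pou5f1 regulatory sequence drives GFP in germ cells, and no gene was deleted in any of them. GFP-positive cells were sorted as germ cells, whereas the somatic fraction was every living GFP-negative cell and was therefore a mixture of cell types. Each library was made from ovaries pooled over more than 1 separately dosed litter, so the spread between replicates is a spread between pools and not between embryos.

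Total counts lay between 14658503 and 18245507 per library, and a floor of 3 counts was worth 0.169 to 0.196 CPM (counts scaled to library total and composition) depending on the library. Intervals and floors given from counts cover counting error only. The labels of the 2 fractions were compared with defining markers. A set of 11 germ cell markers, which includes Dazl and Ddx4, summed to between 7301 and 8935 CPM in the germ cell libraries and to between 15.4 and 48.0 CPM in the somatic libraries. Rec8, a meiotic cohesin gene also listed as a marker, was left out of these sums because it was higher in somatic cells, at 16.4 ± 1.80 CPM after saline against 4.91 ± 1.15 in germ cells. Markers of pregranulosa cells (10 genes, among them Foxl2 and Wnt4) summed to between 30.5 and 141 CPM in the germ cell libraries but 1232 to 1592 in the somatic ones. Both fractions thus carried a low level of the other fraction's markers. In bulk samples, fewer cells of a type and less RNA per cell cannot be told apart.

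PIWI-interacting RNAs (piRNAs) are short RNAs that guide PIWI proteins to transposon transcripts in animal germ cells, where the transcripts are cut and, in the fetal male germline, their loci are methylated. Tudor domains bind methylated arginines, such as those in the tail of PIWI proteins, and Tudor proteins assemble PIWI proteins and RNA helicases in perinuclear granules (nuage). The pathway has been studied mostly in the male germline of the mouse, while oocytes also use endogenous short interfering RNAs against transposons. Among the 10 genes, Piwil2 encodes the PIWI protein MILI, Mov10l1 an RNA helicase that handles piRNA precursors, and Mael the nuage and nuclear protein maelstrom. Tdrd9 and Tdrd12 encode Tudor proteins with helicase domains. Tdrd1, Tdrd5, Tdrd6, Tdrd7 and Rnf17 (also known as Tdrd4, with a RING finger) encode Tudor proteins of the germ granules.

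The 10 genes lay on 8 chromosomes of GRCm38 (mm10). Piwil2 (ENSMUSG00000033644) spanned chr14:70372477-70429383 on the minus strand and Rnf17 (ENSMUSG00000000365) chr14:56402581-56525032 on the plus strand. Mael (ENSMUSG00000040629) spanned chr1:166201201-166238747 and Tdrd5 (ENSMUSG00000060985) chr1:156255296-156303664, both on the minus strand. Mov10l1 (ENSMUSG00000015365) spanned chr15:88982909-89055152, Tdrd1 (ENSMUSG00000025081) chr19:56826209-56870012, Tdrd7 (ENSMUSG00000035517) chr4:45965334-46034761 and Tdrd9 (ENSMUSG00000054003) chr12:111971559-112068854, all on the plus strand. Tdrd6 (ENSMUSG00000040140) spanned chr17:43615335-43630299 and Tdrd12 (ENSMUSG00000030491) chr7:35469098-35537745, both on the minus strand. Exonic lengths used for scaling ranged from 1733 nucleotides in Mael to 7062 in Tdrd6. Mael, Tdrd1, Tdrd6 and Tdrd7 overlapped no other annotated gene. Each gene that overlapped one of the other 6 held at most 13 counts in any library.

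Promoter windows were searched for an E-box, an E2F motif and a glucocorticoid response element. The E-box was the only one found among the 7 genes with a window, in 4 of them, and windows of these 4 are shown. RefSeq windows on GRCm38.p6, running from 250 bases before to 50 after an annotated start, were matched for 7 of the 10 genes, in 12 windows, and none was matched for Piwil2, Tdrd6 or Rnf17. The palindromic E-box CACGTG, which reads the same on both strands, was present in the windows of Mael, Mov10l1, Tdrd1 and Tdrd9. Over all genes in the table, 8.09% of 27025 held it in at least 1 window, as did 12.7% of the genes called higher in germ cells and 10.1% of those called lower. The sequences of 1 window of each of these 4 genes are given 5′ to 3′ on the gene's strand, with CACGTG in capitals.
Mael (chr1:166238695-166238994, minus strand): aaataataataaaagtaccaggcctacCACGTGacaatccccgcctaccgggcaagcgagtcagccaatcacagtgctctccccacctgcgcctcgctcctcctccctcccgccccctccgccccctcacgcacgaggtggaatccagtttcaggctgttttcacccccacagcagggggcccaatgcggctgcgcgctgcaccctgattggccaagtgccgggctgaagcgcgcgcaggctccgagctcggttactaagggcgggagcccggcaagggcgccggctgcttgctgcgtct
Mov10l1 (chr15:88982744-88983043, plus strand): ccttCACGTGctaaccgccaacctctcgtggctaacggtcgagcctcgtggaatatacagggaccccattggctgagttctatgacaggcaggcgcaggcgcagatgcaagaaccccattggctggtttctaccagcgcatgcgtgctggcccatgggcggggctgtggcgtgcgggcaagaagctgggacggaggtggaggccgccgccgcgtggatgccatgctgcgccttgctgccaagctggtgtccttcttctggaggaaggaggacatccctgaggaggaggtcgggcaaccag
Tdrd1 (chr19:56825959-56826258, plus strand): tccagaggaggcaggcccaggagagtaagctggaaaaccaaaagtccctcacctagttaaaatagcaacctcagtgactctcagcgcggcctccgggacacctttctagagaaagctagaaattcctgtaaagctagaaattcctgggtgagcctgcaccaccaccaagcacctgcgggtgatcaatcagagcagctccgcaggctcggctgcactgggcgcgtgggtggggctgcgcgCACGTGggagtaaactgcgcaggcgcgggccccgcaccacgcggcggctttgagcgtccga
Tdrd9 (chr12:111971309-111971608, plus strand): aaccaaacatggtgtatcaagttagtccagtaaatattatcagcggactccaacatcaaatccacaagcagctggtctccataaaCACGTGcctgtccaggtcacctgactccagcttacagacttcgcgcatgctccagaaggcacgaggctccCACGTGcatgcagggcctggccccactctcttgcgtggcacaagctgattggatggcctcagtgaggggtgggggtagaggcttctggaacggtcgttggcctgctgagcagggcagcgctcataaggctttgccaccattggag
The Mael and Mov10l1 matches began at -223 and -246 relative to the start, near the far end of the window. In the Tdrd1 window shown the match began at -11. In the window of another annotated Tdrd1 start it began at -77, and a further Tdrd1 window held none. Tdrd9 held 2 matches, at -165 and -95. Of the other piRNA pathway genes listed, 5 of 17 with a window held CACGTG, namely Piwil1, Ddx4, Pld6, Fkbp6 and Dnmt3l, as did 3 of 19 other Tudor domain genes. The palindromic glucocorticoid response element, searched on both strands as AGAACA and TGTTCT with any 3 bases between them, was found in the windows of 0 of the 7 genes and of 3 of all 27025. The E2F motif TTCCCGCC, searched on both strands, was found in 0 of the 7 and in 2.52% of all genes. Median GC content was 61.7% over the 12 windows and 52.7% over all 32851 windows. A match describes the letters in these windows and is not a measured binding site.

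Levels between genes were compared in FPKM, which scales counts to transcript length and depth. In saline germ cells, Mael had the highest level of the 10 at 312 ± 37.6 FPKM (SD, n = 3), followed by Mov10l1 at 136 ± 6.86. The next 4 were Rnf17 at 74.3 ± 4.44, Tdrd9 at 62.1 ± 14.0, Tdrd7 at 59.2 ± 5.03 and Piwil2 at 54.2 ± 11.2 FPKM. Within these 4, each gene's library range overlapped that of its neighbour in the order, so their order is not resolved. Tdrd1 at 27.6 ± 5.36, Tdrd5 at 19.5 ± 1.44 and Tdrd12 at 8.75 ± 0.499 FPKM followed with ranges that did not overlap. Tdrd6, which encodes a chromatoid body protein of spermatids, was lowest at 0.667 ± 0.201 FPKM.

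The mean FPKM of Mael was 467 times that of Tdrd6, and Mael alone made up 41.3% of the FPKM summed over the 10 genes. Among 17960 protein-coding genes detected in saline germ cells, Mael stood at percentile 99.7 and Mov10l1 at 99.1. Rnf17, Tdrd9, Tdrd7 and Piwil2 lay between percentiles 96.0 and 97.6, Tdrd1 at 89.0, Tdrd5 at 83.4, Tdrd12 at 68.3 and Tdrd6 at 36.4. In dex germ cells the order of the means was the same, from 275 ± 14.1 FPKM for Mael to 0.414 ± 0.0799 for Tdrd6, and 8 of the 10 genes exceeded 10 FPKM in both treatments.

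**Figure D1:**
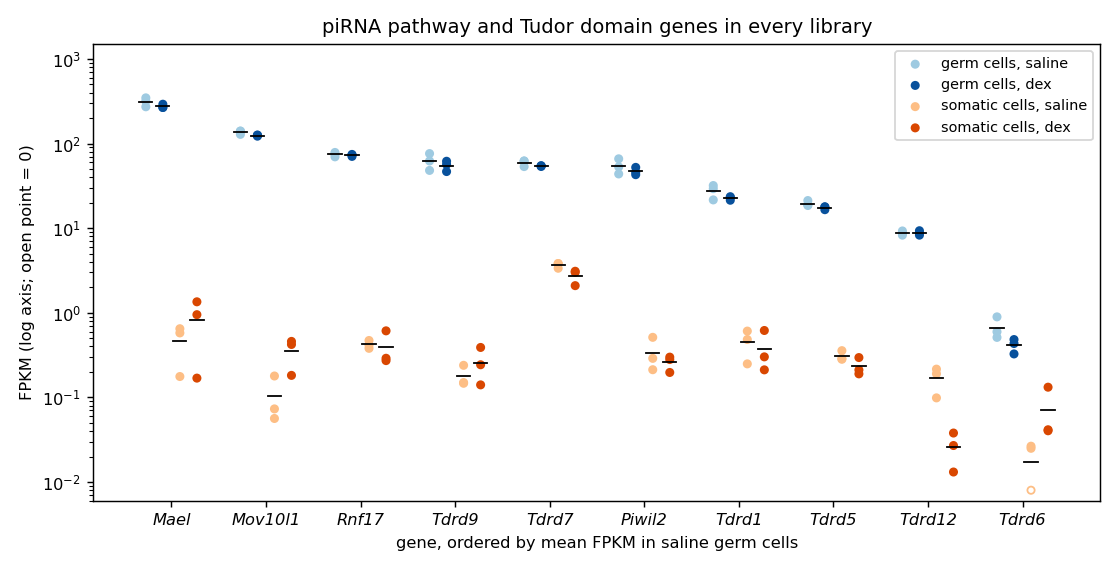
FPKM of each gene (log axis) in every library, with 3 points for each of the 4 groups and the genes ordered by mean in saline germ cells. Germ cell points run from Mael at a mean of 312 FPKM down to Tdrd6 at 0.667, all germ cell points of a gene lie above its somatic points, and Tdrd7 stands highest in the somatic libraries at 3.66 FPKM after saline.

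All 10 genes were higher in germ cells than in somatic cells, in the saline libraries and again in the dex libraries (edgeR quasi-likelihood test, Benjamini-Hochberg (BH) adjusted p-values of at most 0.05 over all genes tested). The background share was high, since 43.1% of 17941 genes tested were called higher in germ cells after saline and 42.0% of 18171 after dex. Tdrd6 and Tdrd12 did not pass the low-count filter among the somatic libraries alone and entered these fits through their germ cell counts. The differences were large, with a median log2 fold change of 6.59 after saline and 7.45 after dex, against 0.00 over all genes tested in either case. Every germ cell library exceeded every somatic library for each of the 10, as for 43.8% of all genes tested in either treatment.

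Mov10l1 had the largest difference of the 10. Its level was 579, 541 and 585 CPM in the 3 saline germ cell libraries and 0.314, 0.775 and 0.242 CPM in the saline somatic libraries. The log2 fold change was 10.31 ± 0.17 (SE, BH-adjusted p = 1.18e-15, edgeR), the somatic side resting on 21 counts over 3 libraries. Mael, at 544, 475 and 598 CPM in germ cells but 0.314, 1.16 and 1.03 in the somatic fraction, differed by 9.32 ± 0.19 on the log2 scale. Both of the most abundant transcripts of the set were thus almost absent from the somatic fraction.

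Piwil2, the only PIWI gene of the 10, was at 345, 233 and 279 CPM in saline germ cells and at 1.57, 1.16 and 2.79 CPM in saline somatic cells, a log2 fold change of 7.26 ± 0.21. The helicase-domain gene Tdrd9 was at 408, 263 and 335 CPM against 0.815, 0.839 and 1.33 CPM, a log2 fold change of 8.37 ± 0.21. Rnf17 was at 463, 438 and 487 CPM against 3.01, 2.45 and 2.67 CPM, a log2 fold change of 7.41 ± 0.11. For these 3 genes the somatic level was under 1% of the germ cell level.

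Tdrd1, a scaffold that binds MILI, was at 172, 118 and 159 CPM in saline germ cells and at 2.70, 3.42 and 1.39 CPM in somatic cells, a log2 fold change of 5.90 ± 0.20. Tdrd5, at 146, 129.6 and 131 CPM against 2.01, 2.07 and 2.55 CPM, gave 5.93 ± 0.12. Tdrd12, at 39.8, 36.2 and 37.7 CPM against 0.439, 0.968 and 0.849 CPM, gave 5.64 ± 0.20. Tdrd7, which is also known from the lens of the eye, showed the smallest difference after saline, at 244, 213 and 244 CPM against 15.49, 13.7 and 15.52 CPM, a log2 fold change of 3.97 ± 0.09.

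Tdrd6 was low in both fractions, at 6.26, 4.25 and 3.60 CPM in saline germ cells and at 0, 0.194 and 0.182 CPM in saline somatic cells. The 231 germ cell counts and 6 somatic counts gave a ratio of 37.2 after scaling with a 95% counting interval from 16.8 to 102. Its fitted log2 fold change of 5.14 ± 0.53 (BH-adjusted p = 2.84e-07, edgeR) depends on the prior count at such low values. After dex the ratio was 5.55, with an interval from 3.65 to 8.72, and the fitted log2 fold change was 2.44 ± 0.49 (BH-adjusted p = 0.000734, edgeR). In the dex libraries the other 9 genes differed by between 4.25 for Tdrd7 and 8.37 for Mov10l1 on the log2 scale.

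The rest of the pathway was described from a list of 23 other piRNA pathway genes. After saline, 17 of the 18 that could be tested were called higher in germ cells and 0 lower, with a median log2 fold change of 7.11. Over all genes tested these shares were 43.1% and 42.9%. Only 10 of the 23 passed the low-count filter among the somatic libraries alone, so the remaining genes tested entered through their germ cell counts. For those genes a call of higher in germ cells was favoured by the filter. Asz1, a nuage protein gene, had the largest fitted difference at 9.94 ± 0.18 (BH-adjusted p = 2.40e-15, edgeR), the somatic side resting on 7 counts. The other PIWI genes were at lower counts than Piwil2. Piwil1 (MIWI, the PIWI protein of later spermatogenesis) had a mean of 13.3 CPM in saline germ cells. Its log2 fold change was 8.86 ± 0.44, with 1 somatic count. Piwil4 (MIWI2, the nuclear PIWI protein of fetal male germ cells) had a mean of 3.63 CPM. Its log2 fold change was 2.56 ± 0.35, with 29 somatic counts. The fitted values of Asz1 and Piwil1 depend on the prior count at such low somatic counts. Hspa2, a chaperone gene best known from spermatocytes, was the one tested gene of the list without a call, at 24.1 ± 5.29 CPM in germ cells against 28.3 ± 2.48 in the somatic fraction (BH-adjusted p = 0.141, edgeR). Dnmt3c, Dnmt3l, Nanos2, Spocd1 and Gtsf2 were too low to be tested.

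Of 21 other Tudor domain genes, all tested, 15 were called higher in germ cells after saline, 4 lower and 2 neither, with a median log2 fold change of 0.60. Over all genes tested, 43.1% were called higher and 42.9% lower. Stk31 (also known as Tdrd8) stood at the upper end with 9.42 ± 0.19 (BH-adjusted p = 3.46e-15, edgeR), and the histone demethylase gene Kdm4a at the lower end with -2.96 ± 0.09 (BH-adjusted p = 1.75e-13, edgeR).

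The profile of Piwil2 across the 12 libraries was compared with that of 9137 other genes. These had a mean of at least 10 CPM in saline germ cells. The measure was the root mean square difference of log2 CPM after centring each gene. The closest were Dnah12 (a dynein heavy chain) at 0.242, Adad1 at 0.274, Tcfl5 (a bHLH transcription factor) at 0.289, Tktl2 at 0.296 and Trim52 at 0.302. Rnf17 ranked at position 8 with 0.348 and Tdrd9 at 25 with 0.446, whereas Tdrd7 ranked at 403 with 1.48. The measure depends mostly on the size of the difference between germ and somatic cells, and the points share libraries and depth.

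Whether dex altered these genes in germ cells was asked by comparing the 3 dex with the 3 saline germ cell libraries. None of the 10 genes was called. The 0 of 10 compares with a background of 0.208% of 16857 genes tested called in either direction (edgeR), and DESeq2 also called 0 of the 10. At an unadjusted p under 0.05 (edgeR) there were 2 of the 10, Tdrd1 and Tdrd6, and 1963 of the 16857 genes tested. Of the fitted log2 fold changes 9 were negative, with a median of -0.15 against 0.01 over all genes tested.

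Piwil2 was at 345, 233 and 279 CPM after saline and at 276, 225 and 244 CPM after dex, a log2 fold change of -0.18 with a 95% interval from -0.46 to 0.09 (BH-adjusted p = 0.624, edgeR). The ranges overlapped and the highest value was saline replicate 1. Mael went from 544, 475 and 598 CPM to 462, 459.9 and 510.1 CPM, a log2 fold change of -0.16 with an interval from -0.33 to 0.02. Mov10l1 went from 579, 541 and 585 CPM to 509.7, 525 and 528 CPM, and all 3 dex libraries lay below all 3 saline libraries. Its log2 fold change was -0.11, with an interval from -0.24 to 0.02 (BH-adjusted p = 0.529, edgeR).

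Among the helicase-domain Tudor genes, Tdrd9 was at 408, 263 and 335 CPM after saline and at 333, 305 and 255 CPM after dex, with overlapping ranges and a log2 fold change of -0.15 (interval -0.47 to 0.16). Tdrd12 was at 39.8, 36.2 and 37.7 CPM after saline and at 40.3, 35.7 and 38.7 CPM after dex, a log2 fold change of 0.03 (interval -0.16 to 0.23). Rnf17 was at 463, 438 and 487 CPM after saline and at 439, 462 and 460.4 CPM after dex, a log2 fold change of -0.01 (interval -0.14 to 0.12). The intervals of Tdrd12 and Rnf17 were the narrowest around 0 of these 3.

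Of the other granule Tudor genes, Tdrd1 was at 172, 118 and 159 CPM after saline and at 128, 125 and 118 CPM after dex, a log2 fold change of -0.26 with an interval from -0.51 to -0.01 (BH-adjusted p = 0.415, edgeR). The dex libraries overlapped saline replicate 2. Tdrd5 went from 146, 129.6 and 131 CPM to 123, 123 and 116 CPM without overlap, a log2 fold change of -0.14 (BH-adjusted p = 0.487, edgeR). Tdrd6 went from 6.26, 4.25 and 3.60 CPM to 3.40, 3.04 and 2.33 CPM without overlap, and its log2 fold change of -0.66 had an interval from -1.26 to -0.07 (BH-adjusted p = 0.377, edgeR). Tdrd7 was at 244, 213 and 244 CPM after saline and 212, 214 and 218 CPM after dex, a log2 fold change of -0.10 with an interval from -0.25 to 0.04. In all, 3 of the 10 genes lay wholly lower after dex, where 10.0% of all genes tested did so, and 0 lay wholly higher, where 6.86% did so. Of 12 germ cell markers outside the set, 3 lay wholly lower and 1 wholly higher, and 8 had a negative log2 fold change.

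The spread between replicates, as the coefficient of variation of FPKM, was larger after saline than after dex for 9 of the 10 genes. This difference was not tested and was not set against all genes. The 10 genes come from the same libraries, so the count is not a trait of this set. In saline germ cells it was 30.1% for Tdrd6, 22.5% for Tdrd9, 20.6% for Piwil2 and 19.5% for Tdrd1, and in each of Tdrd9, Piwil2 and Tdrd1 replicate 1 was highest and replicate 2 lowest. The 10 genes summed to between 2453 and 2947 CPM after saline and to between 2478 and 2526 CPM after dex, so the dex sums lay inside the saline range. Pregranulosa markers summed to 42.3, 75.9 and 88.1 CPM in the saline and to 30.5, 141 and 107 CPM in the dex germ cell libraries, and their part in these differences was not tested.

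**Figure D2:**
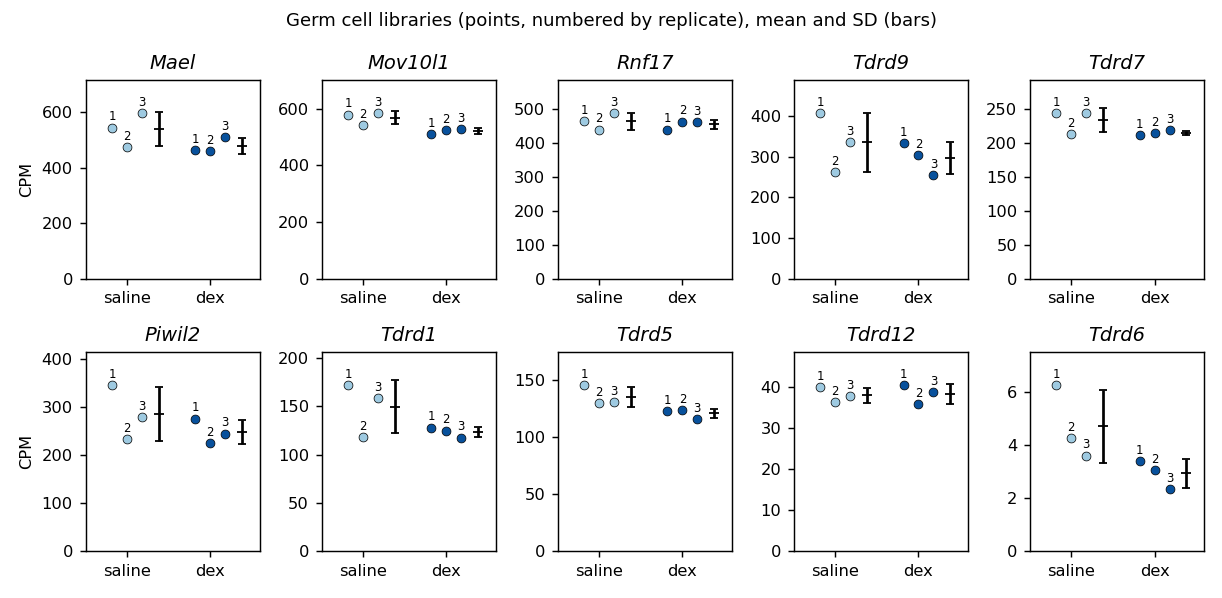
CPM of each gene in the 3 saline and 3 dex germ cell libraries (points numbered by replicate, each panel with its own axis from 0), with mean and SD as bars. The dex points of Mov10l1, Tdrd5 and Tdrd6 lie below all saline points, as for Tdrd6 at 2.33 to 3.40 CPM against 3.60 to 6.26, and those of the other 7 genes overlap the saline points.

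In the somatic fraction these transcripts were low, each under 5 CPM in every library apart from Tdrd7, and the effect of dex was tested for the 8 genes that passed the low-count filter. Of these, 0 were called, where 8.18% of 16556 genes tested were called in either direction (edgeR), and DESeq2 called 0 as well. At an unadjusted p under 0.05 (edgeR) there were 2 of the 8, Mov10l1 and Tdrd7, and 3453 of the 16556 genes tested. The median log2 fold change of the 8 was -0.17 against 0.00 over all genes tested. Tdrd6 and Tdrd12 did not pass the filter.

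Mov10l1 was at 0.314, 0.775 and 0.242 CPM after saline and at 0.776, 1.97 and 1.82 CPM after dex, from 5, 12 and 4 counts and 13, 35 and 31 counts. The groups did not overlap, but dex replicate 1 and saline replicate 2 were nearly equal. The log2 fold change was 1.78 with an interval from 0.57 to 2.99 (BH-adjusted p = 0.0732, edgeR), and the summed counts gave a dex to saline ratio of 3.50 (95% counting interval 2.14 to 5.96). The call depended on the fit, because without the low-count filter, with 30416 genes tested, the BH-adjusted p was 0.0226 (edgeR), and without dex somatic replicate 1 it was 0.0433 at a log2 fold change of 2.09.

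Tdrd12 was at 0.439, 0.968 and 0.849 CPM after saline and at 0.119, 0.169 and 0.0587 CPM after dex, from 7, 15 and 14 counts and 2, 3 and 1 counts. All dex libraries were at or below the floor of 3 counts. The saline to dex ratio of the summed counts was 6.45, with a counting interval from 2.69 to 18.7. In the fit without the low-count filter its BH-adjusted p was 0.0472 (edgeR). Tdrd6 moved from 0, 3 and 3 counts to 5, 17 and 5 counts, a ratio of 4.18 (1.69 to 12.4), with a BH-adjusted p of 0.322 in the same unfiltered edgeR fit.

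Tdrd7, the member of the set with a clear somatic level, was at 15.49, 13.7 and 15.52 CPM after saline and at 12.1, 8.50 and 12.6 CPM after dex. The groups did not overlap, and the log2 fold change was -0.42 with an interval from -0.77 to -0.08 (BH-adjusted p = 0.139, edgeR). Among the 8 genes tested, 1 lay wholly higher after dex (Mov10l1) and 1 wholly lower (Tdrd7), shares close to the 12.7% and 12.8% of all genes tested. Of the 2 untested genes, Tdrd6 lay wholly higher and Tdrd12 wholly lower.

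The other somatic levels overlapped between treatments. Mael was at 0.314, 1.16 and 1.03 CPM after saline and at 0.298, 1.69 and 2.41 CPM after dex (BH-adjusted p = 0.532, edgeR), and Tdrd9 at 0.815, 0.839 and 1.33 CPM and at 0.776, 1.35 and 2.17 CPM (BH-adjusted p = 0.588, edgeR). Piwil2, Tdrd1, Tdrd5 and Rnf17 had log2 fold changes between -0.41 and -0.11, with edgeR BH-adjusted p-values from 0.556 to 0.904. Dex replicate 1 was lowest among the dex libraries for Mael, Mov10l1, Tdrd9 and Rnf17.

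**Figure D3:**
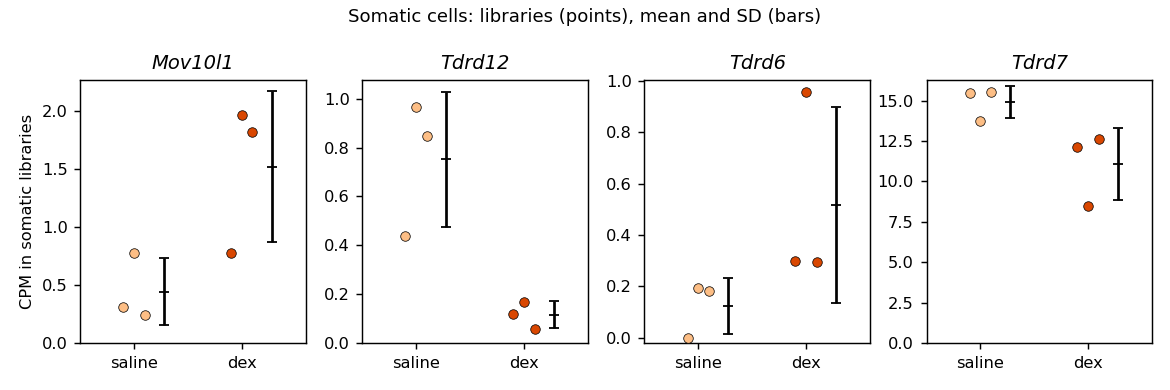
CPM of Mov10l1, Tdrd12, Tdrd6 and Tdrd7 in the 3 saline and 3 dex somatic libraries (points), with mean and SD as bars and each panel on its own axis. These are the 4 genes whose somatic libraries did not overlap, with Mov10l1 and Tdrd6 higher after dex and Tdrd12 and Tdrd7 lower. All Tdrd12 dex points are at 0.169 CPM or less.

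Whether dex acted differently in the 2 fractions was tested as the dex minus saline change in germ cells minus that in somatic cells, with all 12 libraries. Of the 10 genes 2 were called, where 1.62% of 19390 genes tested were called in either direction (edgeR), and the 2 calls had opposite signs. For Mov10l1 the difference was -1.91 ± 0.38 on the log2 scale (SE, interval -2.73 to -1.10, BH-adjusted p = 0.0171, edgeR), from -0.11 in germ cells and 1.78 in somatic cells. For Tdrd12 it was 2.63 ± 0.48 (interval 1.62 to 3.64, BH-adjusted p = 0.00889, edgeR), with germ cells at 0.03 and the somatic side resting on 36 counts after saline and 6 after dex. Tdrd12 had not passed the low-count filter among the somatic libraries alone, and it entered the fit of all 12 through its germ cell counts, so its call rests on somatic counts too low for a test of their own. Both calls thus rest on low somatic counts, and neither gene was called in germ cells.

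The Mov10l1 call was lost without any 1 of 4 somatic libraries, the BH-adjusted p (edgeR) being 0.0796 without dex replicate 2, 0.0521 without dex replicate 3, 0.0675 without saline replicate 1 and 0.0939 without saline replicate 3. The Tdrd12 call was kept without each of the 12 libraries in turn, on somatic counts too low for a test of their own. The other 8 genes were not called, with differences between -2.67 for Tdrd6 (BH-adjusted p = 0.135, edgeR) and 0.31 for Tdrd7 (BH-adjusted p = 0.359, edgeR). DESeq2 also called Tdrd6, with an adjusted p of 0.0432, but Tdrd6 likewise entered the fit through its germ cell counts and had 6 somatic counts after saline and 27 after dex. Among 12 germ cell markers outside the set, 10 had a negative difference, as Mov10l1 did, with a median of -0.75 against 0.01 over all genes tested. Of the 10 genes, 5 had a negative difference, with a median of 0.03. In the same test, 10 of the 12 markers were not called and 2 were. These were Dazl at -3.56 ± 0.14 (BH-adjusted p = 1.91e-10, edgeR) and the meiotic gene Hormad1 at -1.66 ± 0.36 (BH-adjusted p = 0.0280, edgeR), the latter call being lost without any 1 of 7 libraries.

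**Figure D4:**
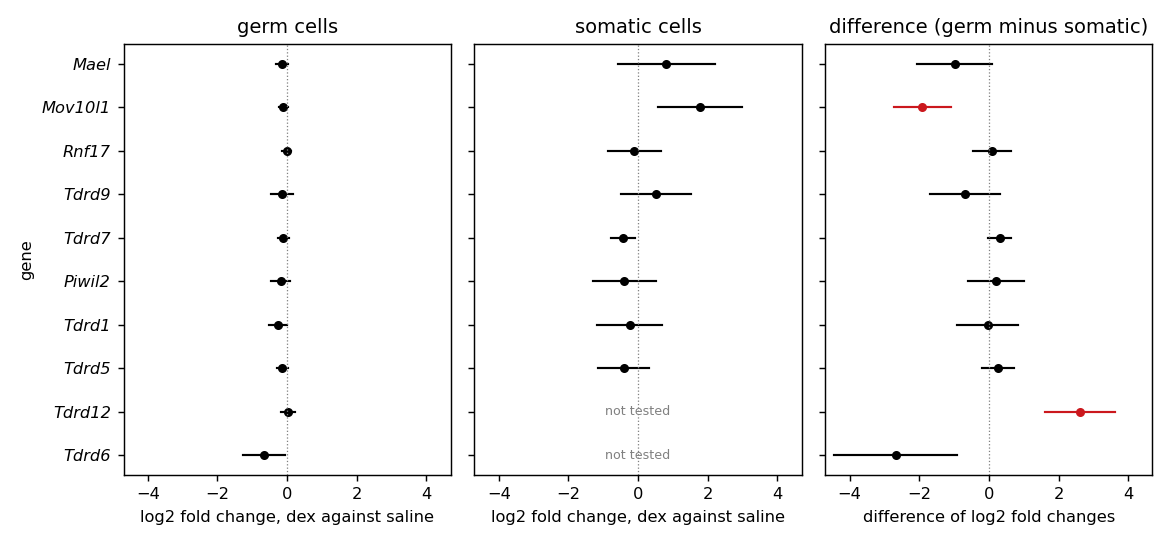
Log2 fold change of dex against saline in germ cells (left) and somatic cells (middle), and their difference (right), as points with 95% intervals for each gene, red where the BH-adjusted p was at most 0.05. Germ cell values run from -0.66 for Tdrd6, which has the widest germ cell interval, to 0.03 for Tdrd12, Tdrd6 and Tdrd12 have no somatic value because they were not tested there, and only Mov10l1 and Tdrd12 are red, in the difference panel.

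The somatic level was set against the germ cell level of each gene, beside the same share for germ cell markers outside the set. After saline, the share was 0.078% for Mov10l1, 0.155% for Mael, 0.297% for Tdrd9, 0.585% for Rnf17 and 0.644% for Piwil2. It was 1.63% for Tdrd5, 1.67% for Tdrd1, 1.98% for Tdrd12 and 2.66% for Tdrd6, the last from 6 somatic counts. Tdrd7 stood at 6.38%. The 11 germ cell markers that were higher in germ cells had a median share of 0.182% and a range from 0 to 2.19%. Rec8 was left out of that range. The share of Tdrd7 lay above every one of these markers. That of Tdrd6 was above them too, but its place is not resolved. The counting interval of its germ to somatic ratio, 16.8 to 102, spans the fitted ratio of 45.7 for Dmc1, the highest marker.

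After dex, the median share of the 11 markers was 0.370%, with a range from 0.241% to 2.47%, and the share of 10 of the 11 was higher than after saline, as was that of 5 of the 10 genes. The share of Mov10l1 was then 0.292% and that of Mael 0.307%, both inside the marker range, and the share of Tdrd12 had gone from 1.98% to 0.302%. Tdrd9 was at 0.481%, Rnf17 at 0.553%, Piwil2 at 0.564%, Tdrd5 at 1.37% and Tdrd1 at 1.71%. Tdrd7 was at 5.16% and Tdrd6 at 17.7%, the latter from 27 somatic and 138 germ cell counts. The 11 markers summed to between 15.4 and 25.4 CPM in the saline and to between 26.9 and 48.0 CPM in the dex somatic libraries, and the 10 without Dazl to between 14.2 and 24.1 and to between 14.2 and 35.5 CPM. By library, the sums without Dazl were 14.2, 24.1 and 14.9 CPM after saline and 14.2, 31.2 and 35.5 CPM after dex. They overlapped between treatments through dex replicate 1 only, and dex replicates 2 and 3 lay above every saline library. Dazl, an RNA-binding protein gene of germ cells, rose in the somatic libraries from 1.17 ± 0.194 to 12.6 ± 0.174 CPM (by 3.43 ± 0.21 on the log2 scale, BH-adjusted p = 2.92e-07, edgeR). The other 8 markers tested, Rec8 among them, were not called. Dppa5a was at 0 in all 3 saline and Pou5f1 in all 3 dex somatic libraries. The part of germ cell RNA in the somatic values of Mov10l1 and Tdrd12 was not tested.

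**Figure D5:**
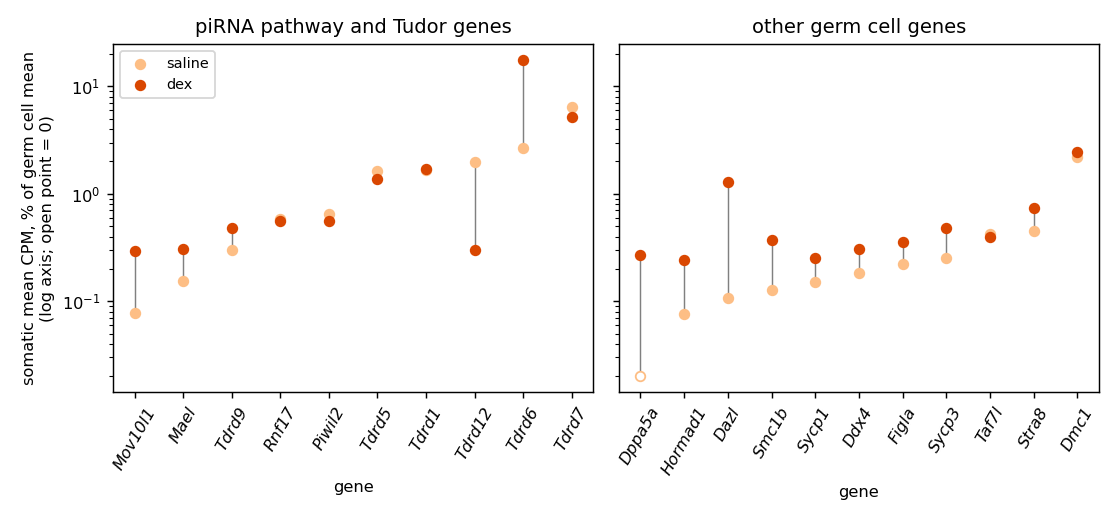
Mean somatic CPM as a percent of mean germ cell CPM (log axis) after saline and after dex, for the 10 piRNA pathway and Tudor genes and for germ cell markers outside the set, with a line joining the 2 treatments of a gene. Mov10l1 goes from 0.078% to 0.292%, Tdrd12 from 1.98% to 0.302%, and Tdrd7 at 6.38% and 5.16% lies above the 11 markers that are higher in germ cells.

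In the wider lists, the dex comparisons were read against the same background shares of 0.208% in germ cells, 8.18% in somatic cells and 1.62% in the difference. Of the other piRNA pathway genes, 0 of 19 were called in germ cells, 0 of 10 in somatic cells and 0 of 19 in the difference (edgeR). With lists this short, such counts are not distinguishable from the background. Of the 21 other Tudor domain genes, 0 were called in germ cells and 0 in the difference, and 1 was called in somatic cells. That gene was Trp53bp1, a DNA damage response gene, at 153 ± 7.64 CPM after saline and 125 ± 1.07 CPM after dex (log2 fold change -0.29 ± 0.06, BH-adjusted p = 0.00857, edgeR). Its call was lost without saline somatic replicate 1 or 2, at BH-adjusted p-values of 0.0513 and 0.0562.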

How the data were processed

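RNA of 12 libraries was selected on poly-A and primed with random hexamers for paired-end sequencing. The authors aligned reads to mm10 with HISAT2 2.0.5 and counted them with featureCounts 1.5.0-p3, per the submitters' processing notes, which also name DESeq2 1.20.0. The authors deposited raw counts per gene, and FPKM values made from those counts, gene length and depth. Strand and multi-mapping settings are not given in the sources used here, so counts of overlapping genes are uncertain. The authors' 2 tables of their own comparisons (fold changes and p-values) were not used.

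Counts were tested with edgeR 4.0.16 (quasi-likelihood, TMM scaling, filterByExpr, limma 3.58.1, R 4.3.3) over all genes, only the groups compared entering each fit, and a call required a BH-adjusted p no larger than 0.05. The test of the difference used all 12 libraries. DESeq2 1.42.0, other scalings, no low-count filter, a replicate block and leaving out each library were tried. Standard errors and 95% intervals are those implied by the F statistic. Fold changes of genes with few counts depend on edgeR's prior count of 0.125. CPM values use TMM-scaled totals and n = 3 per group. Likeness to Piwil2 used log2 of CPM plus 0.5.

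The text names the 10 genes, the ends of each list of related genes, and any gene of those lists called in a dex comparison. The 10 genes and the lists were chosen with earlier results of these data known. The fit was tested on simulated counts. Gene coordinates are those of the deposited table, which equal GENCODE M21.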

Additional observations from a re-analysis of the deposited data

Results flagged for a closer look

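The test of the difference in dex response between germ and somatic cells called 2 genes, both on low somatic counts. For Mov10l1 the germ cell response minus the somatic response was -1.91 on the log2 scale (edgeR BH-adjusted p = 0.0171), with 21 somatic counts after saline and 79 after dex. The Mov10l1 call was lost without any 1 of 4 somatic libraries (edgeR BH-adjusted p up to 0.0939). For Tdrd12 the same difference was 2.63 (edgeR BH-adjusted p = 0.00889), with 36 somatic counts after saline and 6 after dex. Tdrd12 did not pass the low-count filter among the somatic libraries alone and entered the test through its germ cell counts.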

How the results depend on the processing

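The germ cell excess of all 10 genes was called under every alternative, in both treatments. Among germ cell libraries, 35 genes in all were called for dex, 158 with DESeq2, 420 without the low-count filter and 17 to 81 when 1 library was left out, and of the 10 genes 1 was called without the filter (Tdrd1, log2 fold change -0.27, BH-adjusted p = 0.0414). Among somatic libraries 1354 genes were called, 754 to 1881 with 1 library left out, and of the 10 genes 2 without the filter and 0 to 1 with 1 library left out. For the difference, 314 genes were called, 620 with DESeq2, 727 without the filter and 143 to 384 with 1 library left out, and of the 10 genes 4 without the filter (adding Mael and Tdrd6, BH-adjusted p = 0.0202 and 0.0252) and 1 to 2 with 1 library left out. Fewer or more genes tested and a changed estimate of spread are part of these settings, and the cause of the changed counts was not tested.

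Signs turned only for genes without a call. With library totals as the scaling, Rnf17 in germ cells went to 0.0082 and Tdrd1 in the difference to 0.033. With 1 library left out, the germ cell values ran from -0.31 to 0.022 for Tdrd9 and from -0.035 to 0.076 for Tdrd12. For Rnf17 they ran from -0.056 to 0.022 in germ cells, from -0.59 to 0.10 in somatic cells and from -0.10 to 0.58 in the difference. For Tdrd1 they ran from -0.80 to 0.047 in somatic cells and from -0.32 to 0.54 in the difference, and for Piwil2 from -0.63 to 0.039 and from -0.22 to 0.45.

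Deviations of libraries with equal replicate number correlated between fractions at r from 0.063 to 0.176 after saline and from 0.092 to 0.200 after dex, and in both treatments 6 of 6 libraries correlated best with their own number, a hint of pairing from the data. Not every pair was over 0.1 and no label gives a shared source, so numbers were not treated as pairs. With replicate number as a block, 49 genes were called for dex in germ cells, 1520 in somatic cells and 389 in the difference, 15283 and 15044 between fractions, and no call among the 10 genes changed. Only the comparisons between fractions joined germ and somatic libraries of equal number. In the dex comparisons and the difference, the block joined saline and dex libraries of equal number within a fraction. The difference was therefore not tested with germ and somatic libraries paired. Numbers of somatic counts limit the Tdrd6, Tdrd12 and Mov10l1 values.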
